A study of Arabidopsis thaliana with 16 samples.

Results

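The comparison asks at which time of day the loss of phytochrome B changed a transcript's level in plants labelled 22 °C. It uses 8 of the 16 arrays of the series, those of the wild type Landsberg erecta (Ler) and of the mutant phyB-1 at 4 h and at 10 h, which form 4 groups of 2 arrays. The quantity described is the phyB-1 minus Ler difference at 10 h minus the same difference at 4 h, called the interaction here. The plants were Arabidopsis thaliana grown on soil, and RNA came from all parts except the roots. The phyB-1 allele is in the Ler background, so both genotypes carry its erecta mutation, and the labels name no other agent or allele. The event that starts the count of hours is not given. Every sample, also those labelled 16 °C, has the same growth schedule, with 11 days spent at 16 °C and then 21 days at 22 °C. Each also had 5 days of stratification, the cold rest given to seeds. Separate plants or cultures are not stated for replicate arrays, so p-values measure only the spread between these samples, which may be technical.

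Phytochrome B is a photoreceptor that red light switches to an active form and far-red light switches back. In its active form it enters the nucleus and removes or blocks the PIF transcription factors, which otherwise drive stem and petiole elongation through auxin and cell wall genes. Mutants lacking it look like shaded plants, and because PIF activity also follows the circadian clock and temperature, phytochrome B is known to matter at some times of day more than at others.

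The deposited values are MAS5 intensities, 1 per probe set (the group of short probes that reports 1 transcript). Lower quartiles of the 8 arrays were 5.84 to 11.1, and replicate arrays correlated at 0.962 to 0.975. An intensity near the lower quartile is read here as near background. COR27, a clock-controlled gene that peaks late in the day, was at 0.728 to 16.3 on the 4 h arrays and at 644 to 912 on the 10 h arrays, as the time labels have it. PHYB was not analysed here, since no probe set is named for it. Of 13 leaf genes, 5 had a named probe set, from the Rubisco activase gene RCA at 3995 to 10472 down to LHCB4.3 at 59.0 to 160. Their summed intensity at 4 h was 22613 to 23845 in Ler and 21780 to 23607 in phyB-1. It was lower at 10 h, at 11920 to 15112 in Ler and 11728 to 15581 in phyB-1. Of 15 root genes, PYK10 and EXPA7 had a named probe set, and their summed intensity was 312 to 375 in phyB-1 and 203 to 267 in Ler over both times. EXPA7, the root hair gene of the pair, was at 0.996 to 46.1. Of 8 pollen genes, ACT11 and ACT12 had a named probe set; their sum at 4 h was 215 on both Ler arrays and 175 to 181 in phyB-1, and at 10 h it was 65.0 to 75.1 in Ler and 91.5 to 93.8 in phyB-1. ACT12 was near background at 0.825 to 9.07. The log2 ratio of the 3′ to the 5′ control probes of GAPDH, a measure of RNA integrity, was 0.323 to 0.399 in Ler and 0.596 to 0.615 in phyB-1 at 4 h. At 10 h it was 0.474 to 0.752 in Ler and 0.787 to 0.812 in phyB-1. The same ratio for actin was larger, 3.26 to 3.99 over the 8 arrays, and the ranges of the genotypes overlapped at both times. The part of these markers and ratios in the results below was not tested, and in whole shoots fewer cells of a type and less RNA per cell cannot be told apart.

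Few transcripts had a genotype difference that changed with time beyond the spread between arrays, and most of those that did were lower in phyB-1 at 10 h. Of 13648 probe sets tested on the log2(intensity + 16) scale, 6 had the interaction called at an adjusted p under 0.05 (limma with the replicate number as a block, Benjamini-Hochberg over all probe sets tested), which is 0.044%. One was positive (0.00733%) and 5 were negative (0.0366%). At an unadjusted p under 0.05 the interaction counted 827 probe sets, 6.06% of those tested. Within 4 h, 129 probe sets were called (0.945%), 80 higher (0.586%) and 49 lower (0.359%) in phyB-1. Within 10 h, 242 were called (1.77%), 136 higher (0.996%) and 106 lower (0.777%). At an unadjusted p under 0.05 the shares were 12.8% at 4 h and 11.3% at 10 h.

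The calls at the separate times overlapped in 56 probe sets (0.41%), which are 43.4% of those called at 4 h and 23.1% of those called at 10 h, and 55 of the 56 had the same sign. A further 73 were called at 4 h and not at 10 h, and 186 at 10 h and not at 4 h. A call at one time and not at the other does not show that the times differ: the interaction itself was called for 0 of the 73 and for 4 of the 186. Without the block 3 interactions were called, all 3 among the 6, with 5 probe sets called at 4 h and 34 at 10 h. Leaving out 1 array gave 3 to 23 interactions (most without Ler 4 h replicate 2), 5 to 201 calls at 4 h (fewest without phyB-1 4 h replicate 1) and 63 to 357 at 10 h (fewest without phyB-1 10 h replicate 2).

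**Figure D1:**
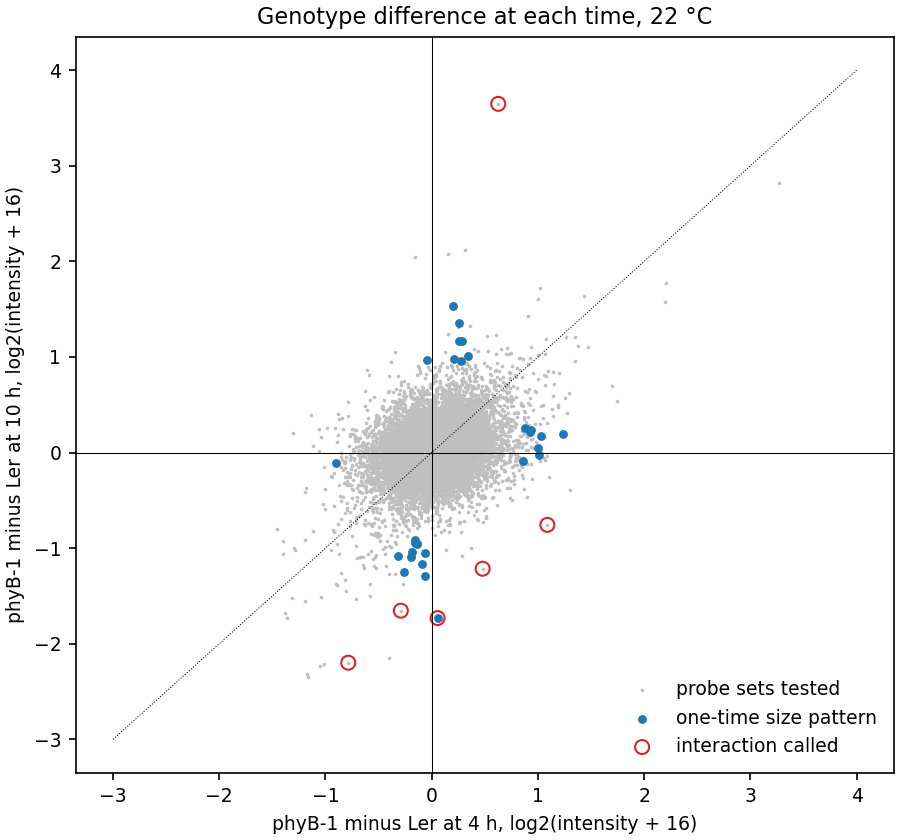
Difference between phyB-1 and Ler at 4 h (horizontal axis) and at 10 h (vertical axis), in log2(intensity + 16), for the 13648 probe sets tested at 22 °C. Red rings mark the 6 probe sets with the interaction called, blue points the 28 that meet the one-time size rule, and the dotted line marks equal differences; the ringed point at 3.65 on the vertical axis is 245325_at.

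The named genes with the interaction called were AT5G03350 and AT5G55450, and both were much lower in phyB-1 at 10 h. AT5G03350 encodes a legume lectin family protein and is known as a gene induced by salicylic acid. At 4 h its intensity was 1199 and 1153 in Ler and 804 and 1144 in phyB-1. By 10 h it was 384 and 481 in Ler and 103 and 152 in phyB-1. All 4 arrays at 10 h lay below all 4 at 4 h. With 2 arrays per group, a lack of overlap between genotypes describes the arrays and is not a test. The genotypes were apart at 10 h, while at 4 h they were nearly level in replicate set 2 (1153 in Ler and 1144 in phyB-1). The difference was log2 -0.29 ± 0.15 (SE) at 4 h (adjusted p = 0.43, limma) and -1.65 ± 0.15 at 10 h (adjusted p = 1.8e-06). The interaction was -1.36 ± 0.21 (adjusted p = 0.012), made up of -1.18 within the first replicate set and -1.55 within the second. Between 4 h and 10 h the level fell by 1.42 on the log2 scale in Ler and fell by 2.78 in phyB-1. The call held in 4 of the 8 fits that leave out 1 array.

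AT5G55450 encodes a small secreted protein of the lipid transfer and protease inhibitor superfamily. Its intensity at 4 h was 229 and 178 in Ler and 134 and 90.9 in phyB-1. The 10 h values were 760 and 846 in Ler and 186 and 141 in phyB-1. The 10 h arrays of phyB-1 stayed in the range of the Ler arrays at 4 h or below it, while the Ler level had risen by log2 1.91. The mutant was lower at both times, by log2 -0.79 ± 0.16 at 4 h (adjusted p = 0.022, limma) and -2.20 ± 0.16 at 10 h (adjusted p = 1.5e-07), so this gene differed in the size of the effect, not in its presence. The interaction was -1.41 ± 0.23 (adjusted p = 0.019), and the call held in 3 of the 8 fits that leave out 1 array.

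The 4 other called probe sets are not in the annotation table used here and are given by their IDs. The one positive interaction was 245325_at, at 25.4 and 9.89 in Ler and 37.9 and 31.5 in phyB-1 at 4 h. On the 10 h arrays it was 48.6 and 62.1 in Ler and 830 and 922 in phyB-1. The mutant at 10 h thus stood apart from the 6 other arrays, all under 65. The difference was log2 0.63 ± 0.21 at 4 h (adjusted p = 0.19, limma) and 3.65 ± 0.21 at 10 h (adjusted p = 1.1e-08). The interaction of 3.02 ± 0.30 (adjusted p = 8.5e-05) was 3.33 in replicate set 1 and 2.71 in set 2. It was called in all 8 fits that leave out 1 array.

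The genotype difference of 256766_at changed sign. At 4 h its intensity was 671 and 778 in Ler and 1692 and 1431 in phyB-1. The 10 h intensities were 2727 and 2691 in Ler and 1490 and 1712 in phyB-1. The level in the mutant was about the same at both times, with the wild type below it at 4 h and above it at 10 h. The difference was log2 1.09 ± 0.14 at 4 h (adjusted p = 0.00043, limma) and -0.76 ± 0.14 at 10 h (adjusted p = 0.0047), and the interaction was -1.85 ± 0.19 (adjusted p = 0.0001).

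The probe set 265837_at was alike in both genotypes at 4 h, at 196 and 216 in Ler and 217 and 211 in phyB-1. At 10 h it reached 1741 and 1399 in Ler and 432 and 488 in phyB-1. The rise with time took place in both genotypes and was smaller in the mutant, without overlap at 10 h. Its difference was log2 0.06 ± 0.14 at 4 h and -1.73 ± 0.14 at 10 h (adjusted p = 9.7e-07, limma), and its interaction was -1.79 ± 0.20 (adjusted p = 0.00023). Both this probe set and 256766_at were called in all 8 fits that leave out 1 array.

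The sixth was 266746_s_at, whose suffix marks probes that can match several transcripts. Its intensity at 4 h was 88.8 and 152 in Ler and 183 and 155 in phyB-1. The 10 h arrays read 2280 and 1524 in Ler and 892 and 707 in phyB-1. It rose with time in both genotypes and ended lower in the mutant. The interaction was log2 -1.70 ± 0.29 (adjusted p = 0.028, limma), called in 3 of the 8 fits that leave out 1 array.

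**Figure D2:**
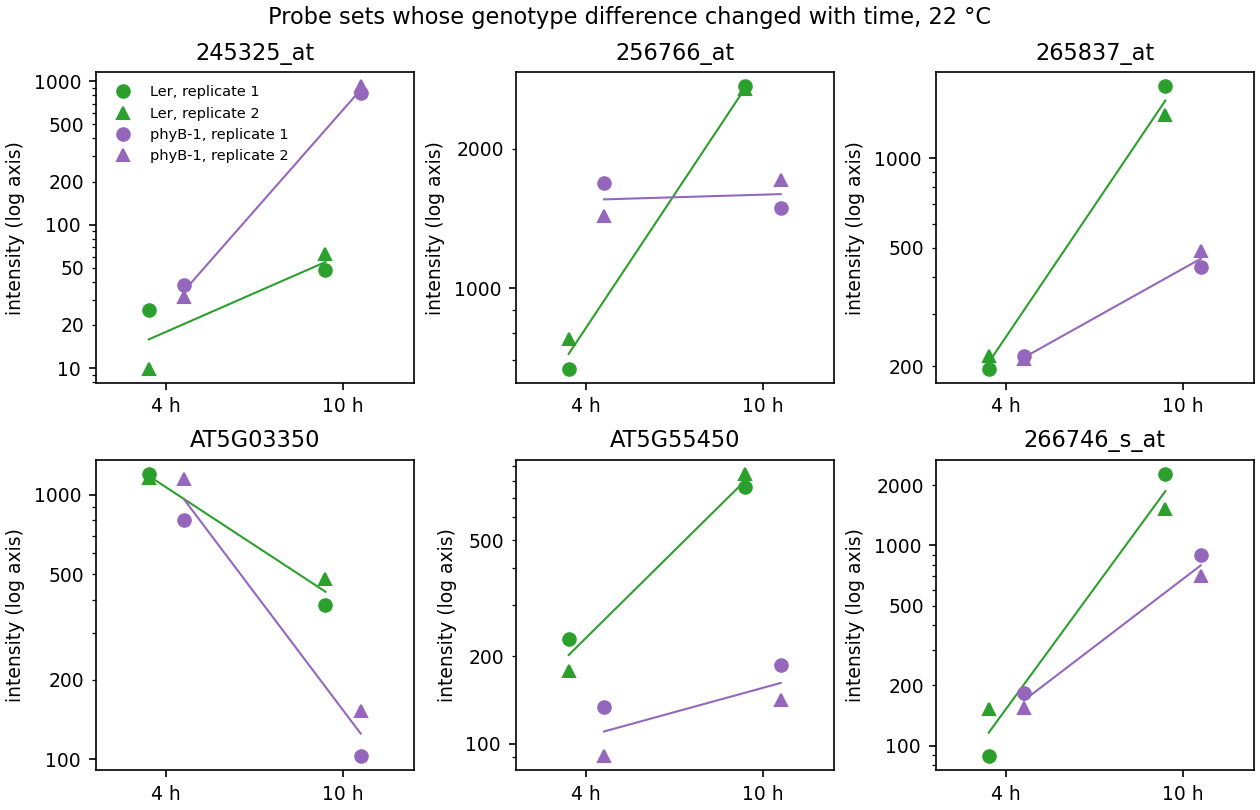
Intensity (log axis, a separate range in each panel) of the 6 probe sets with the interaction called, in Ler (green) and phyB-1 (purple) at 4 h and 10 h, 22 °C. Circles are replicate 1, triangles replicate 2, and lines join the geometric means of each genotype; in 5 of the 6 panels the mutant lies below the wild type at 10 h, and in 245325_at it lies above.

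Because the test called so few, genes were also described by size alone. A probe set met the one-time rule where phyB-1 minus Ler was at least 0.8 in size with 1 sign in both replicate sets at one time and within 0.4 of 0 in both sets at the other time. The rule was met by 28 probe sets (0.205% of those tested). Of these, 8 were higher in phyB-1 at 10 h (0.0586%), 11 were lower at 10 h (0.0806%), 8 were higher at 4 h (0.0586%) and 1 was lower at 4 h (0.00733%). Only 265837_at among them had the interaction called. The values that chose these genes are given as a description, and 9 of the 28 have 1 named gene. A change of sign of at least 0.5 in both sets was met by 2 probe sets (0.0147%), 256766_at and 264091_at, the second with intensities of 10.2 to 75.4.

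AT5G48570 and AT3G28220 were the named genes higher in phyB-1 at 10 h by this rule, which itself requires small differences at 4 h. AT5G48570 (ROF2) encodes an immunophilin that is induced by heat and acts in thermotolerance. At 4 h its intensity was 45.6 and 36.6 in Ler and 58.5 and 45.9 in phyB-1. At 10 h it was 37 and 49.7 in Ler and 121 and 112 in phyB-1. The mutant at 10 h was thus the only group above 60. Its difference was log2 0.25 ± 0.21 at 4 h and 1.17 ± 0.21 at 10 h, and its interaction of 0.91 ± 0.29 was not called (adjusted p = 0.56, limma). AT3G28220, which encodes a TRAF-like family protein, was at 443 and 436 in Ler and 579 and 549 in phyB-1 at 4 h. By 10 h it was at 116 and 280 in Ler and 277 and 526 in phyB-1. Its replicate arrays were far apart at 10 h, so that the genotypes overlapped there although each set showed a difference, 1.16 in set 1 and 0.87 in set 2.

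Of the named genes lower in phyB-1 at 10 h by the size rule, AT1G51805 had the smallest interaction p. It encodes a leucine-rich repeat receptor-like kinase. At 4 h it was at 520 and 450 in Ler and 440 and 367 in phyB-1. The 10 h values were 326 and 254 in Ler and 129 and 95.8 in phyB-1. The genotypes overlapped by no array at 10 h, and the replicate sets gave -1.24 and -1.27. Its interaction was log2 -0.99 ± 0.20 (adjusted p = 0.068, limma).

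AT1G65490 went from 506 and 553 at 4 h to 99.4 and 99.3 at 10 h in Ler. In phyB-1 it went from 481 and 444 to 34.3 and 46.5. The wild type and the mutant were close at 4 h, and the mutant was the lower at 10 h by log2 -1.04 ± 0.15. AT2G26190, which encodes a calmodulin-binding family protein, was at 84.1 and 79.1 in Ler and 74 and 69.6 in phyB-1 at 4 h. On the 10 h arrays it was at 148 and 150 in Ler and 75.2 and 64.9 in phyB-1. The 10 h level in the mutant was that of 4 h, while the level in Ler had risen by log2 0.76. AT1G19960 was at 440 to 559 in Ler and 425 to 463 in phyB-1 at 4 h, and at 202 and 296 against 101 and 147 at 10 h. AT1G52200, of the PLAC8 family, was low at 4 h (29.4 and 9.19 in Ler, 21.6 and 3.53 in phyB-1) and at 189 and 95.1 in Ler and 68.4 and 44.5 in phyB-1 at 10 h. The size rule itself makes the interaction of these 5 genes negative in both replicate sets, and in none of them was it called.

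WES1, an auxin-inducible gene whose product attaches amino acids to auxin and so inactivates it, was higher in phyB-1 at 4 h by the size rule. At 4 h its intensity was 24.8 and 24.2 in Ler and 95 and 65.9 in phyB-1. The 10 h intensities were 43.8 and 50.4 in Ler and 56.4 and 55.7 in phyB-1. The mutant was well apart at 4 h and close to the wild type at 10 h. The difference was log2 1.23 ± 0.22 at 4 h (adjusted p = 0.008, limma) and 0.19 ± 0.22 at 10 h (adjusted p = 0.84). The interaction of -1.04 ± 0.31 was not called (adjusted p = 0.48). AT5G22580, which encodes a stress-responsive A/B barrel domain protein, was at 506 and 347 in Ler and 930 and 711 in phyB-1 at 4 h. The 10 h arrays read 428 and 320 in Ler and 484 and 383 in phyB-1, where the genotypes overlapped. Its interaction was -0.72 ± 0.18 (adjusted p = 0.27, limma). The single probe set lower in phyB-1 at 4 h was 263549_at, at 97.8 and 92.6 in Ler and 45.1 and 42.1 in phyB-1. At 10 h it was at 92.8 and 84.2 against 85.0 and 76.9.

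Unnamed probe sets of the one-time rule have the shapes that the rule requires, and their intensities are given as a description. 256245_at was at 110 to 175 in both genotypes at 4 h. By 10 h it was at 81.8 and 113 in Ler and 293 and 250 in phyB-1. 263942_at was at 147 and 222 in Ler and 183 and 167 in phyB-1 at 4 h, and at 34.9 and 44.7 against 74.2 and 116 at 10 h. Each was higher in the mutant at 10 h only, without overlap. 255794_at was at 29.3 to 55.5 in both genotypes at 4 h. The 10 h values were 339 and 256 in Ler and 133 and 92.0 in phyB-1. 264779_at was at 167 and 148 in Ler and 310 and 288 in phyB-1 at 4 h, and at 308 to 346 in both genotypes at 10 h. The mutant thus had at 4 h nearly the level that both genotypes had at 10 h.

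Just inside the limits lay AT2G26190, with -0.85 at 10 h in replicate set 1, and AT1G52200, with -0.37 at 4 h in set 2. Just outside them, SCPL49, which encodes a serine carboxypeptidase-like protein, had 0.76 and 0.85 at 4 h and -0.07 and 0.01 at 10 h. Its intensity at 4 h was 145 and 182 in Ler and 256 and 341 in phyB-1. On the 10 h arrays it was 691 and 748 in Ler and 656 and 756 in phyB-1. The genotypes were apart at 4 h and overlapped at 10 h. AT1G61740, of a sulfite exporter family, was similar, at 127 and 119 in Ler and 229 and 255 in phyB-1 at 4 h. The 10 h intensities were 512 and 491 in Ler and 495 and 529 in phyB-1. Both genes rose with time in both genotypes (adjusted p of 1.1e-05 or less in each, limma), AT1G61740 by log2 1.89 in Ler and 1.03 in phyB-1 and SCPL49 by 2.04 and 1.21. Their interactions were not called (adjusted p = 0.16 for each).

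**Figure D3:**
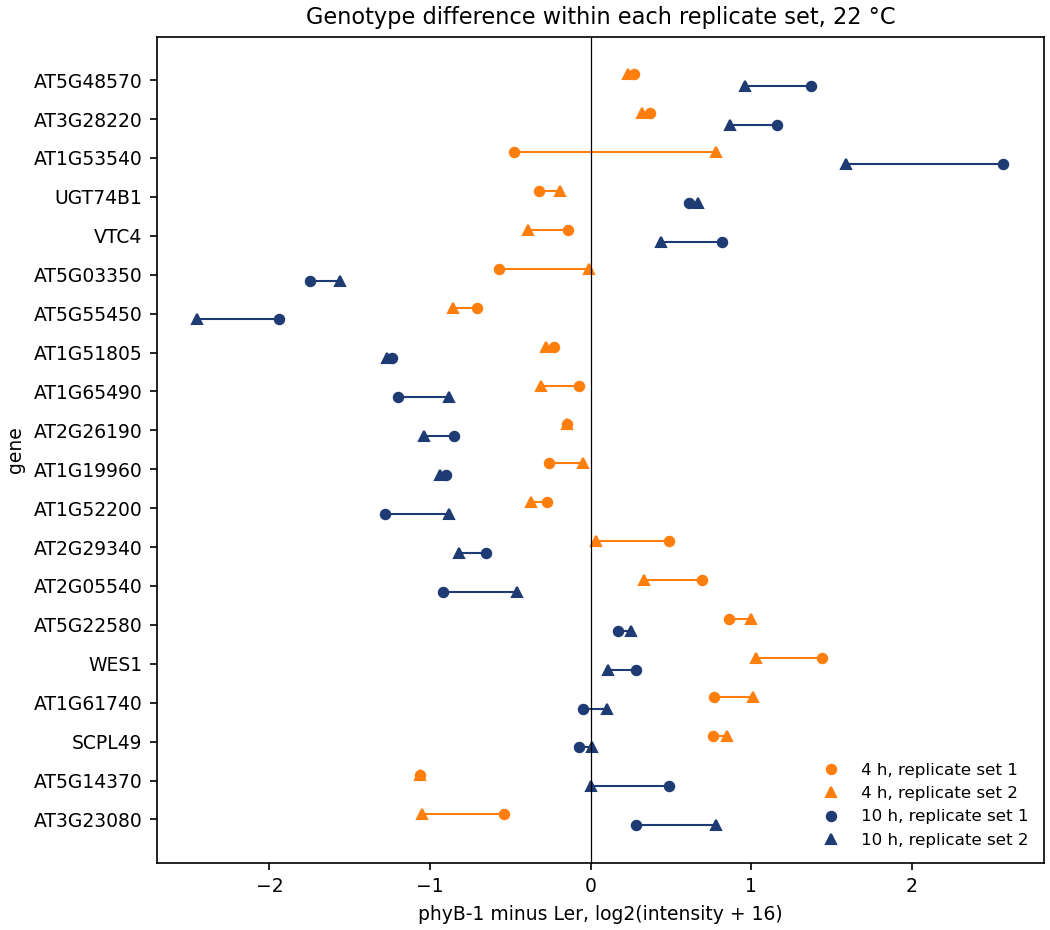
Difference between phyB-1 and Ler at 22 °C in log2(intensity + 16) for the 20 named genes, at 4 h (orange) and 10 h (blue), with replicate set 1 as circles and set 2 as triangles joined by a line. The 2 genes with the interaction called are AT5G03350 and AT5G55450, both furthest to the left at 10 h; WES1 lies furthest to the right at 4 h.

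Of the genes with the smallest interaction p that met neither the test nor the size rule, 3 were called higher in phyB-1 at 10 h. AT1G53540 encodes a small cytosolic heat shock protein. At 4 h it was at 20.1 and 3.05 in Ler and 9.91 and 16.7 in phyB-1. The 10 h arrays read 26.1 and 18.3 in Ler and 234 and 87.3 in phyB-1. Its interaction of log2 1.93 ± 0.44 was not called (adjusted p = 0.16, limma), and the mutant's arrays at 10 h were far from each other. VTC4, a phosphatase gene of ascorbate synthesis, was at 758 and 1179 in Ler and 688 and 893 in phyB-1 at 4 h. At 10 h it was at 76.4 and 124 in Ler and 147 and 174 in phyB-1. The fall with time was log2 -3.08 in Ler and -2.18 in phyB-1, and the interaction was 0.89 ± 0.20 (adjusted p = 0.16, limma). UGT74B1, which encodes a glucosyltransferase of glucosinolate synthesis, was at 517 and 487 in Ler and 410 and 423 in phyB-1 at 4 h. By 10 h it was at 138 and 125 in Ler and 219 and 208 in phyB-1. The order of the genotypes turned between the times, without overlap at either, and the interaction was 0.90 ± 0.20 (adjusted p = 0.12, limma).

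The opposite turn was seen in AT2G05540, which encodes a glycine-rich protein. At 4 h it was at 95.2 and 112 in Ler and 164 and 145 in phyB-1. The 10 h values were 464 and 436 in Ler and 238 and 313 in phyB-1. The genotypes did not overlap at either time, and the interaction of log2 -1.20 ± 0.23 just missed the threshold (adjusted p = 0.058, limma). AT2G29340, of the short-chain dehydrogenase family, had an interaction of -0.99 ± 0.23 (adjusted p = 0.17, limma), with 241 and 216 in Ler and 147 and 115 in phyB-1 at 10 h.

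AT5G14370, which encodes a protein with the CCT motif found in CONSTANS-like regulators, was lower in phyB-1 at 4 h. Its intensity at 4 h was 130 and 88.7 in Ler and 53.5 and 34.2 in phyB-1. On the 10 h arrays it was 100 and 74.3 in Ler and 147 and 74 in phyB-1. The genotypes were apart at 4 h and overlapped at 10 h, and the interaction was 1.31 ± 0.26 (adjusted p = 0.082, limma). AT3G23080, of a START domain family, was at 146 and 215 in Ler and 95.6 and 96 in phyB-1 at 4 h. The 10 h intensities were 94.5 and 125 against 118 and 225. Within each replicate set AT3G23080 was lower in the mutant at 4 h and higher at 10 h (log2 0.28 and 0.78). Its interaction was 1.32 ± 0.26 (adjusted p = 0.072, limma).

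A wider rule, added after the data were seen, took probe sets called at one time with a fitted difference within 0.4 of 0 at the other time and an unadjusted interaction p under 0.05. It was met by 125 probe sets (0.916%), of which 53 were higher (0.388%) and 38 lower (0.278%) in phyB-1 at 10 h, and 18 were higher (0.132%) and 16 lower (0.117%) at 4 h. Of the 125, 45 have 1 named gene. The genes named next were picked from them after their values were seen. AT3G09440 encodes a cytosolic chaperone of the heat shock cognate family. At 4 h it was at 834 and 1085 in Ler and 800 and 1107 in phyB-1. The 10 h arrays read 74.2 and 131 in Ler and 182 and 205 in phyB-1. The genotypes shared their range at 4 h and were apart at 10 h, by log2 0.86 ± 0.15. TIL, which encodes a temperature-induced lipocalin, was at 1203 and 1008 in Ler and 1095 and 1037 in phyB-1 at 4 h. At 10 h it was at 943 and 868 in Ler and 1380 and 1297 in phyB-1. The genotypes overlapped at 4 h and were apart at 10 h, by log2 0.56 ± 0.13. Neither gene had the interaction called (adjusted p = 0.18 for AT3G09440 and 0.47 for TIL, limma).

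Of the other genes that met the wider rule with higher values in phyB-1 at 10 h, GH9C2, a cellulase family gene, was at 69.1 and 73.2 in Ler and 103 and 142 in phyB-1 at 10 h. The pectate lyase family gene AT1G67750 was at 30.8 and 49.5 in Ler and 55.8 and 120 in phyB-1 at 10 h. AT5G45670, a GDSL lipase family gene, had a difference of log2 0.72 ± 0.16 at 10 h and -0.01 ± 0.16 at 4 h. In the opposite direction, the lipase family gene AT5G24210 was at 124 and 174 in Ler and 37.5 and 57.3 in phyB-1 at 10 h, a difference of -1.38 ± 0.19 against -0.27 ± 0.19 at 4 h.

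Lower in phyB-1 at 4 h was AT2G46600, which encodes a calcium-binding EF-hand protein. At 4 h it was at 749 and 661 in Ler and 340 and 382 in phyB-1. By 10 h it was at 878 and 593 in Ler and 584 and 625 in phyB-1. The genotypes were apart at 4 h and overlapped at 10 h. AT1G73600, of the phosphoethanolamine methyltransferase family, was at 2578 and 2178 in Ler and 1721 and 1502 in phyB-1 at 4 h. The 10 h values were 97.0 and 85.8 in Ler and 92.2 and 72.4 in phyB-1. The large fall with time brought both genotypes to a shared range. AT2G41840, which encodes a cytosolic ribosomal protein, was at 3039 and 2598 in Ler and 1708 and 1820 in phyB-1 at 4 h. At 10 h its difference was log2 -0.26 ± 0.13.

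The pathway lists held 165 tested genes in 24 of the 27 lists, and none of these genes had the interaction called (limma, smallest adjusted p = 0.12, UGT74B1), with 18 of the 165 (10.9%) at an unadjusted p under 0.05 against 6.06% of all probe sets tested. Of all probe sets tested, 0.586% were called higher and 0.359% lower at 4 h, and 0.996% higher and 0.777% lower at 10 h, the background for the counts that follow. Over all probe sets tested the median difference was log2 0.02 at 4 h and 0.02 at 10 h. Of 4 glucosinolate synthesis genes, none was called at 4 h. At 10 h 2 were called higher in phyB-1 (0.996% of all probe sets tested), UGT74B1 (0.64) and BCAT4 (1.06). BCAT4 is the first enzyme of methionine chain elongation. The change with time was negative for both, log2 -1.81 in Ler and -0.92 in phyB-1 for UGT74B1 and -1.87 and -1.25 for BCAT4. The list's median was -0.05 at 4 h and 0.44 at 10 h. BCAT4 was at 389 and 559 in Ler and 751 and 1303 in phyB-1 at 10 h, and at 1523 and 1997 against 2040 and 2753 at 4 h. Its difference was positive at both times, and its interaction was 0.62 ± 0.19 (adjusted p = 0.52, limma).

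Some auxin and cell wall genes were called higher in the mutant, at 4 h, at 10 h or at both. Of 5 auxin response genes, IAA29 and WES1 were called higher in phyB-1 at 4 h and IAA29 at 10 h. At these times 0.586% and 0.996% of all probe sets tested were called higher. IAA29, a PIF target encoding an auxin response repressor, was at 30.9 and 15.2 in Ler and 78.3 and 46.4 in phyB-1 at 4 h. On the 10 h arrays it was at 34.8 and 22.5 in Ler and 132 and 106 in phyB-1. The genotypes did not overlap at either time, and the interaction of log2 0.60 ± 0.30 was not called (adjusted p = 0.84, limma). Of 15 cell wall expansion genes, EXPA15 (0.85) and EXPA4 (0.75) were called higher in phyB-1 at 4 h and EXPA8 (0.83) at 10 h. At the time at which each was not called, EXPA15 had 0.50, EXPA4 0.35 and EXPA8 0.40. The list's median was 0.00 at 4 h and 0.32 at 10 h.

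Of 68 chloroplast-encoded genes tested, 5 were called lower in phyB-1 at 4 h (0.359% of all probe sets tested) and 1 at 10 h (0.777%). The list's median was -0.20 at 4 h and -0.14 at 10 h. The genes called lower at 4 h were psbN and the NDH subunits ndhK, ndhJ, ndhE and ndhG. The NDH complex feeds electrons back into the plastoquinone pool. ndhK was at 1130 and 780 in Ler and 511 and 450 in phyB-1 at 4 h. The 10 h intensities were 823 and 664 in Ler and 646 and 599 in phyB-1. The genotypes were apart at both times, by log2 -0.95 ± 0.14 at 4 h and -0.24 ± 0.14 at 10 h, and the interaction was 0.70 ± 0.19 (adjusted p = 0.35, limma). ndhG was lower in phyB-1 by 0.93 at 4 h and by 0.81 at 10 h.

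Of the remaining lists, 1 of 12 starch and sugar genes was called higher in phyB-1 at 4 h. This was the sucrose exporter gene SWEET11 (0.68, against 0.28 at 10 h). EXO, of the low-sugar list, was called higher in phyB-1 at 10 h (1.09, against 0.40 at 4 h). So was COR15A of the cold list (0.62, against 0.36). DFR of anthocyanin synthesis fell by 1.29 at 4 h and fell by 0.99 at 10 h, and the jasmonate regulator gene MYC3 rose at both, by 0.79 and 0.81. None of the 10 nuclear photosynthesis genes, 7 chlorophyll synthesis genes, 6 salicylic acid and defence genes and 3 reference genes was called at either time. The 6 salicylic acid and defence genes, of 16 with a named probe set, were WRKY20, WRKY22, SAG101, PUB24, PUB43 and PUB49. AT5G03350, described above as induced by salicylic acid, is not among these 6. The clock-regulated genes COR27 and GI had interactions of log2 -0.38 ± 0.29 and 0.24 ± 0.24, neither called (adjusted p = 0.91 and 0.92, limma).

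**Figure D4:**
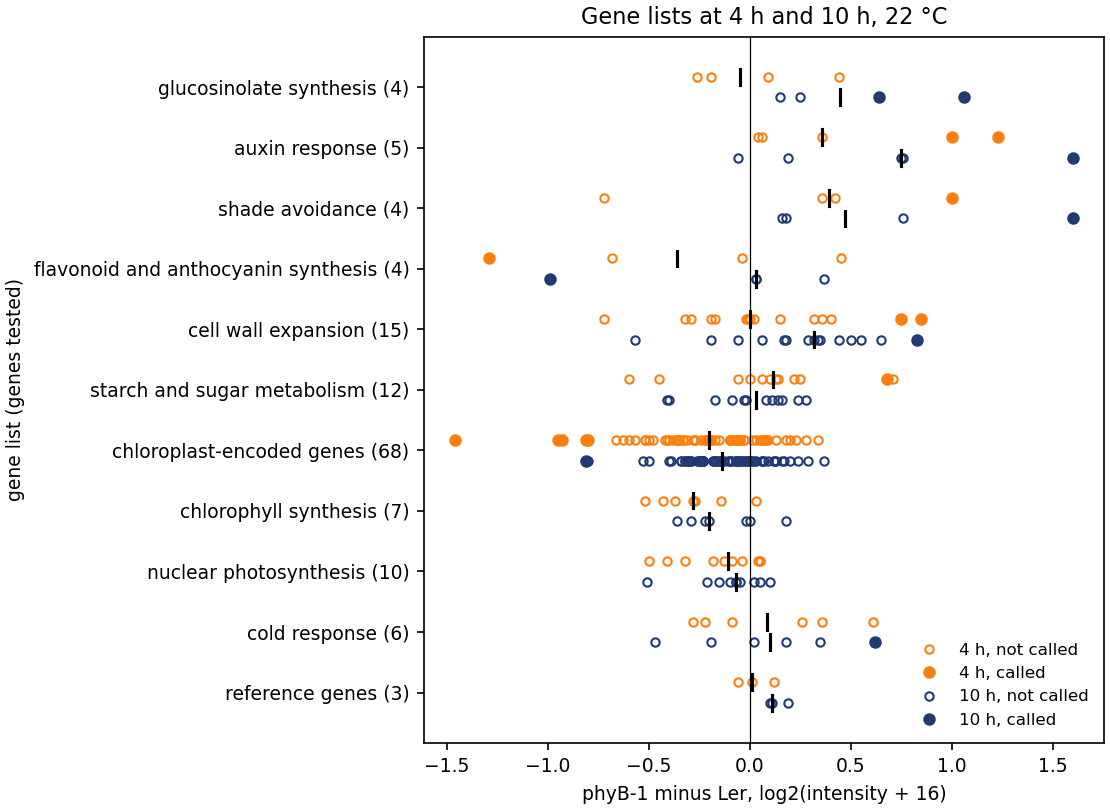
Difference between phyB-1 and Ler at 22 °C in log2(intensity + 16) for each tested gene of 11 lists, at 4 h (orange) and 10 h (blue). Filled points are called at an adjusted p under 0.05, open points are not, and black bars are the medians; the glucosinolate genes have a median of -0.05 at 4 h and 0.44 at 10 h, and the filled chloroplast-encoded points lie mostly at 4 h.

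The values of the arrays labelled 16 °C do not enter the 22 °C fit or the size rules, and give the same quantity at another labelled temperature. The wider rule and the genes picked from it were chosen with results of the whole series known. On 6 of the arrays labelled 16 °C, COR27 read 1.52 to 14.9 at 4 h and 546 to 738 at 10 h. It was at 843 on the array labelled phyB-1 4 h replicate 2 and at 53.4 on the array labelled phyB-1 10 h replicate 2. These arrays went against their time labels, so the 16 °C values come from a fit of the other 14 arrays, in which the mutant at 16 °C has replicate 1 only and is assumed to vary like the other groups. Its 10 h array also had the highest GAPDH 3′ to 5′ log2 ratio of the series, 1.63, and the part of this in the 16 °C values was not tested. In this fit no interaction was called at 16 °C (smallest adjusted p = 0.088, 1143 probe sets at an unadjusted p under 0.05), and no difference in the interaction between temperatures was called (smallest adjusted p = 0.41, 785 at an unadjusted p under 0.05). With all 16 arrays no interaction was called at 22 °C either, with 176 at an unadjusted p under 0.05.

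All 6 probe sets called at 22 °C had the same sign at 16 °C, also in replicate 1 alone. The 16 °C interaction was log2 2.18 ± 0.53 for 245325_at, -1.28 ± 0.57 for 256766_at and -1.57 ± 0.38 for 265837_at. It was -1.37 ± 0.36 for AT5G03350, -1.05 ± 0.49 for AT5G55450 and -0.89 ± 0.45 for 266746_s_at. None of these passed the test on its own (adjusted p = 0.22 to 0.63, limma).

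The 11 probe sets lower in phyB-1 at 10 h by the size rule all had a negative value at 16 °C, from -2.08 to -0.08 with a median of -1.08, where 48.8% of all probe sets tested were negative and their median was 0.01. In replicate 1 alone 10 of the 11 were negative, with a median of -0.88. The largest value among the named genes was that of AT1G65490, -1.64 ± 0.49, followed by AT1G19960 at -1.62 ± 0.48. The smallest was that of AT2G26190, -0.08 ± 0.37. A negative value can come from a lower mutant at 10 h or from a higher one at 4 h. In replicate 1 alone at 16 °C, phyB-1 minus Ler at 4 h and 10 h was 0.76 and -0.64 for AT1G65490. It was -0.06 and -0.99 for AT1G19960 and 0.21 and -0.67 for AT1G51805. For AT2G26190 it was -0.33 and 0.02, and for AT1G52200 1.02 and 0.20. Of the 2 other named genes lower in phyB-1 at 10 h, AT2G05540 had -1.60 ± 0.32 at 16 °C (adjusted p = 0.11, limma) and AT2G29340 had -1.10 ± 0.37. By the wider rule, 33 of 38 such probe sets were negative at 16 °C, with a median of -0.60. In replicate 1 alone 28 of the 38 were negative, with a median of -0.43.

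The other patterns were mixed at 16 °C. Of the 8 probe sets higher at 10 h, 5 were positive and 3 negative, with a median of 0.36. AT5G48570 was among the negative ones, at -0.37 ± 0.42. Of the 8 higher at 4 h, 5 were positive and 3 negative, where the 22 °C values of all 8 were negative, with a median of 0.48. WES1 had 0.51 ± 0.40 there. UGT74B1 was at 0.00 ± 0.30 at 16 °C, VTC4 at 0.25 ± 0.28, AT1G53540 at 0.65 ± 0.61 and AT5G14370 at 0.42 ± 0.32. By the wider rule, the 53 higher at 10 h had a median of 0.06, the 18 higher at 4 h had -0.10 and the 16 lower at 4 h had 0.04. Of these 16, 9 were positive and 7 negative at 16 °C. The negative ones included ndhK (-0.78 ± 0.31), ndhJ (-0.86 ± 0.34) and ndhE (-1.12 ± 0.34), whose 22 °C values were positive. Whether the patterns differ from each other in this respect was not tested.

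**Figure D5:**
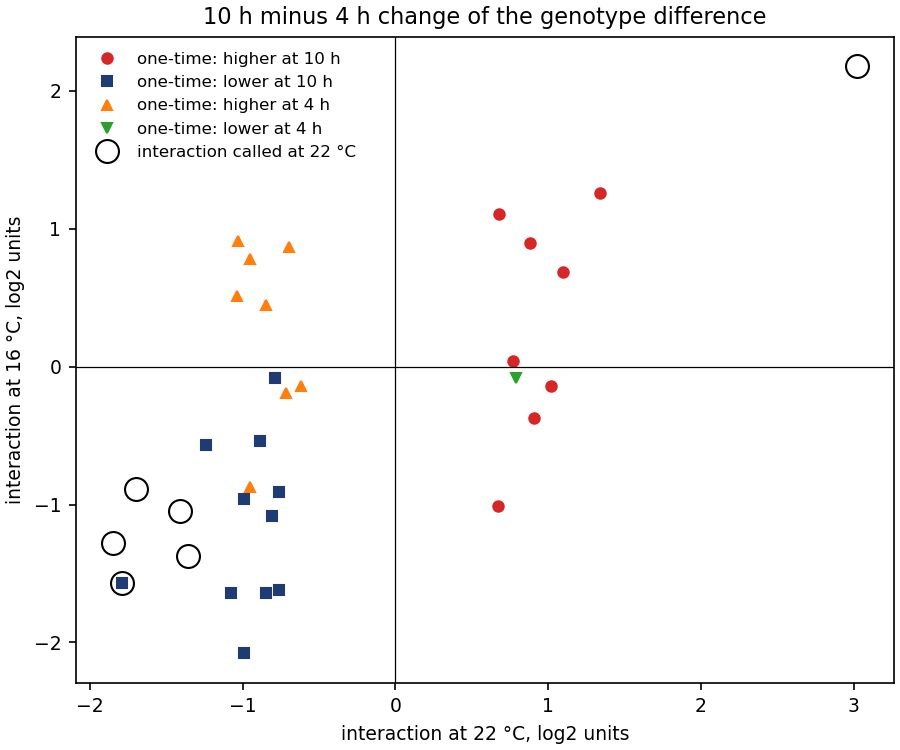
The interaction (phyB-1 minus Ler at 10 h minus the same at 4 h, log2 units) at 22 °C (horizontal axis) and at 16 °C in the 14-array fit (vertical axis) for the 28 probe sets of the one-time size rule and, ringed, the 6 with the interaction called. The 11 blue squares, lower in phyB-1 at 10 h and 22 °C, all lie below 0 on the vertical axis. The red circles and orange triangles lie on both sides.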

How the data were processed

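The deposited file holds 1 linear intensity per probe set and array, 22810 in all, made by the authors; the submitters' processing notes name MAS5 and GCOS without versions. The 64 array controls were left out. Of the other 22746 probe sets, 13513 had 1 gene in the platform annotation table, 503 had more than that, and 8730 were absent from it; symbols were updated through the RefSeq table of assembly TAIR10.1. The deposited scaling was kept and values were analysed as log2(intensity + 16) in R 4.3.3 with limma 3.58.1, a scale that understates changes of dim genes. Testing covered 13648 probe sets (7379 with 1 gene), the brightest 60% by their mean over the 8 arrays. The fit held 4 group means and the replicate number (eBayes with an intensity trend, 3 residual degrees of freedom) and was tested on simulated data. In that simulation a larger share of the interaction calls was false than the nominal rate of the adjusted p, so a called interaction near the threshold is less certain than its adjusted p states. The labels' numbers were treated as pairing the arrays because the comparison was defined so. Same-numbered arrays deviated together in all 6 pairs of groups (correlations of 0.32 to 0.49). The median intensity was 37.1 to 40.0 on the replicate 1 arrays at 22 °C and 31.3 to 33.2 on those of replicate 2. The part of this in the correlations was not tested. The number of arrays limits the precision.

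Named genes were the interaction calls, the one-time genes and then those of smallest interaction p until 20 were named (2, 9 and 9), all from probe sets with 1 gene, with list members and at most 2 unnamed probe sets a pattern. The 2 remaining unnamed calls, 245325_at and 266746_s_at, were named after their values were seen. The members and lists were chosen with earlier results of these data known. Alternatives changed the block, arrays, offset, filter, normalization, variance prior and size limits, and left out each array in turn.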

Additional observations from a re-analysis of the deposited data

Results flagged for a closer look

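In 6 probe sets the genotype difference at 10 h differed from that at 4 h by the interaction test itself (limma, adjusted p of 0.028 or less, 2 arrays per group), in the same direction in both replicate sets. The change was log2 3.02 for 245325_at, -1.41 for AT5G55450, -1.36 for AT5G03350, -1.85 for 256766_at, -1.79 for 265837_at and -1.70 for 266746_s_at. Of these, AT5G55450 was called lower in phyB-1 at both times and 256766_at was called with opposite signs, while the other 4 were called at 10 h only.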

How the results depend on the processing

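The interaction count of 6 became 3 with no replicate block, 0 with all 16 arrays, 1 with the 14 arrays, 17 with an offset of 64, 0 with no filter on dim probe sets (1242 at an unadjusted p under 0.05) and 1 without the intensity trend, and ranged from 3 to 23 when 1 array was left out. It rose to 23 without Ler 4 h replicate 2, with all 6 among them, and was 3 without either phyB-1 4 h array or without phyB-1 10 h replicate 1. The 4 h count of 129 became 5 without the replicate block, 0 with 16 arrays (623 unadjusted), 8 with 14, 80 with an offset of 1, 15 with no filter and 11 without the trend, and ranged from 5 to 201, the lowest without phyB-1 4 h replicate 1 and the next, 34, without replicate 2. The 10 h count of 242 became 34 without the replicate block, 0 with 16 arrays (506 unadjusted), 65 with 14, 57 with no filter and 70 without the trend, and ranged from 63 to 357, with 82 without Ler 10 h replicate 1 and 68 and 63 without the phyB-1 10 h arrays. The one-time count of 28 became 72 with an offset of 1, 15 with 64, 54 with no filter, 4 with limits of 1.0 and 0.3, and 125 by the wider rule. The sign-change count of 2 became 8 with an offset of 1, 1 with 64, 7 with no filter, 1 in the upper 40% and 0 with a limit of 0.7. The cause of these shifts was not tested, beyond the samples or probe sets each setting drops. Over 31 genes and probe sets, 584 alternative interaction values kept their direction; 535 kept their side of the threshold, 43 lost a call and 6 gained one. Of 19 alternatives, 245325_at was called in 17, 256766_at and 265837_at in 15, AT5G03350 in 10, AT5G55450 in 8 and 266746_s_at in 6, and each reached an adjusted p of 1.0 in at least 1. Near background, the offset sets the size of a log2 value.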
